A study of Rattus norvegicus with 24 samples.

Results

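The 6 arrays described here compared the kidneys of SS-13BN/Mcw rats overnight after a change of salt, and they are 6 of the 24 arrays of the series, chosen by their titles. SS-13BN/Mcw is a consomic rat, that is, a Dahl salt-sensitive (SS) rat whose chromosome 13 was replaced by that of the Brown Norway rat. Each array was hybridised with the total RNA of 2 rats of the strain, 1 in Cy5 and 1 in Cy3, and the titles name low salt (LS) and high salt (HS) without saying which rat had which. The 3 rat pairs were rats 1 and 4 (pair 1), 2 and 5 (pair 2) and 3 and 6 (pair 3), and each pair was run on 2 slides with the dyes exchanged. All rats of this group carried the Brown Norway chromosome, on both sides of each ratio. The groups set beside it are SS rats overnight (3 other pairs, 6 arrays), which are not consomic, and SS-13BN/Mcw rats at 3 days (3 pairs, 6 arrays), whose titles repeat rats 1 to 3 with rats 7 to 9. SS rats at 3 days entered only the shared estimate of the spread. Age, sex, salt content of the diets and the part of the kidney sampled were not given in the sources used here.

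The proximal tubule takes back most of what the glomerulus filters. Its brush border carries peptidases, transporters and the endocytic receptors megalin and cubilin, and its cells burn fatty acids, break down amino acids and conjugate foreign compounds. The interstitium around the tubules holds vessels and the fibroblasts that make collagen, and stressed tubule cells are known for clusterin, metallothionein and related proteins. SS rats are known for hypertension and kidney damage on high salt, and SS-13BN/Mcw rats for a milder course.

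The values below are log ratios as deposited, with neither the base of the logarithm nor the numerator stated, so neither a fold nor a direction with salt can be given. A gene is described by the side of 0 on which its ratio lay. Each array held 1110 to 1412 probes with a value, and 1623 probes had one on at least 1 of the 6 arrays. The ratios carry no abundance, and precision is limited by the small number of arrays. The arrays differed in spread: their SD over probes was 0.376 and 0.258 in pair 1, 0.416 and 0.294 in pair 2, and 0.544 and 0.505 in pair 3. Both arrays of a pair were alike in pair 3 (r = 0.749 over 1021 probes), less so in pair 2 (r = 0.385 over 1059) and hardly in pair 1 (r = 0.076 over 1244). With the mean of the other arrays of the same dye orientation removed, these were 0.825, 0.263 and 0.169. Averaging both arrays gave 1 value per pair, and the pairs correlated with each other across genes, which are not independent replicates (r = 0.675 for pairs 1 and 2, 0.629 for 1 and 3, and 0.628 for 2 and 3). Proximal tubule, thick ascending limb and collecting duct markers had measured ratios, 0 podocyte probes could be tested, and nothing in the ratios shows how much of a cell type was present.

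Of 1100 probes with both orientations in at least 2 pairs, 116 (10.5%) differed from 0 with an adjusted p of at most 0.05 by limma, 81 on the negative side (7.36%) and 35 on the positive side (3.18%). The median of all 1100 was -0.0016, with 546 above 0 and 554 below. At an unadjusted p under 0.05 there were 336, where chance gives 55. The sides were unlike in size. The negative genes had a median of -0.58 and 14 lay below -1, whereas the positive genes had a median of 0.37 and 0 lay above 1. The sign was the same in each measured pair for 116 of 116, and on each measured array for 92, a likeness that passing the test itself favours. Among probes read on all 6 arrays it was the same on all 6 for 82 of 106 that passed and 196 of 923 tested (21.2%).

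**Figure D1:**
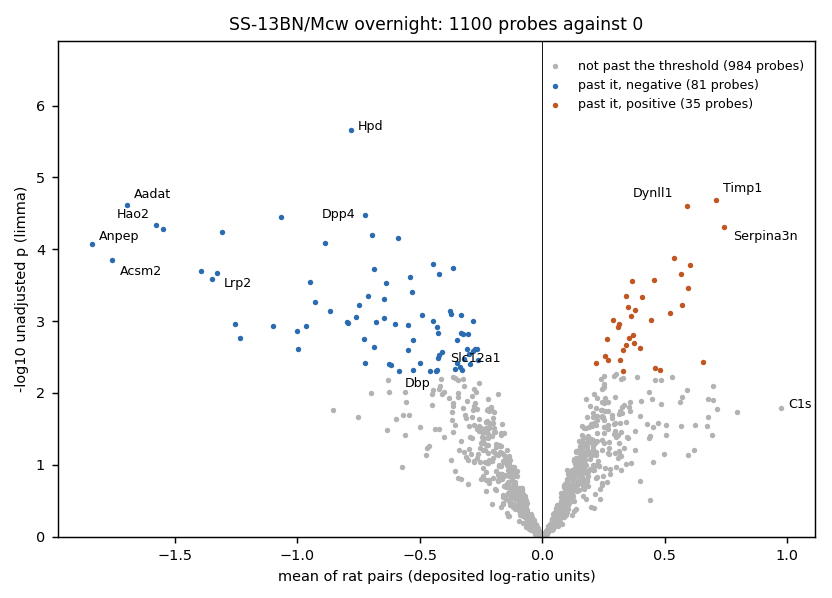
Each point is 1 of 1100 probes; the x axis gives the mean of the rat pairs in deposited log-ratio units and the y axis the unadjusted p of limma as -log10. The 81 negative probes past an adjusted p of 0.05 reach far below -1, the 35 positive ones end at 0.74, and C1s, at 0.97, did not pass.

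The count rested largely on pair 3. That pair lay farthest from 0 in 58 of the 72 negative genes with 3 pairs, and in 19 of 34 positive ones. The negative genes had medians of -0.34, -0.44 and -0.84 in pairs 1, 2 and 3, and the positive genes 0.30, 0.40 and 0.43. Without pair 1 the count was 92, without pair 2 it was 45, and without pair 3 it was 12. In these fits 106, 110 and 112 of the 116 could be tested. Genes with no value in pair 3 kept their mean without it, so a lost call there does not rest on their own pair 3 value. The same 10 of the 116 passed in each of these 3 fits, namely Aadat, Hao2, Gsta2, Akr7a3, Hpd, Dpp4, Dynll1, Timp1, Serpina3n and 1 without a name. The 12 that passed without pair 3 were these with Clu and Pard3, a polarity protein read in pairs 1 and 2 (mean -0.95 ± 0.13, SD, n = 2). Of the 116, 33 passed in none of the 3 fits that left out a pair. With the 3 pairs fitted alone, without the spread of the other groups, 0 passed, and 280 had an unadjusted p under 0.05. The ratios were taken to point the same way on both arrays of a pair. With the arrays that had the lower-numbered rat in Cy5 turned in sign, 309 passed, 42 of them among the 116, and 72 of the 116 kept their sign.

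The deepest negative values belonged to a peptidase and 4 other enzymes known from the proximal tubule. Anpep encodes aminopeptidase N, a peptidase of the brush border. Its array values, with the lower-numbered rat in Cy3 first, were -1.61 and -0.49 in pair 1, -2.40 and -1.39 in pair 2, and -2.81 and -2.33 in pair 3, giving -1.84 ± 0.76 (SD, n = 3) over pairs (adjusted p = 0.00665). Acsm2, a mitochondrial synthetase that activates medium-chain fatty acids, stood at -1.36 and -0.75 in pair 1, -1.74 and -1.28 in pair 2, and -2.56 and -2.85 in pair 3 (mean -1.76 ± 0.85, SD, n = 3, adjusted p = 0.00984). For both genes all 6 arrays lay below 0, and pair 3 lay lowest, pair 1 nearest to 0.

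Aadat, an aminotransferase of kynurenine and aminoadipate, read -1.37 and -0.82 in pair 1, -1.53 and -1.34 in pair 2, and -2.52 and -2.59 in pair 3 (mean -1.70 ± 0.76, SD, n = 3, adjusted p = 0.00627). Hao2, the peroxisomal hydroxyacid oxidase of the kidney, read -0.90 and -1.06 in pair 1, -1.07 and -1.24 in pair 2, and -2.62 and -2.56 in pair 3 (mean -1.58 ± 0.89, SD, n = 3, adjusted p = 0.00627). Gsta2, an alpha class glutathione transferase, read -1.01 and -0.85 in pair 1, -1.22 and -1.18 in pair 2, and -2.57 and -2.48 in pair 3 (mean -1.55 ± 0.85, SD, n = 3, adjusted p = 0.00627). In Hao2 and Gsta2 both arrays of a pair nearly met, and in all 3 genes pair 3 lay well below pairs 1 and 2. With the signs turned by dye all 5 of these genes lay nearer to 0, Anpep at -0.44, Acsm2 at -0.13, Aadat at -0.11 and Gsta2 at -0.048, and Hao2 came to 0.045, on the other side. Of the 5 only Anpep then passed.

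**Figure D2:**
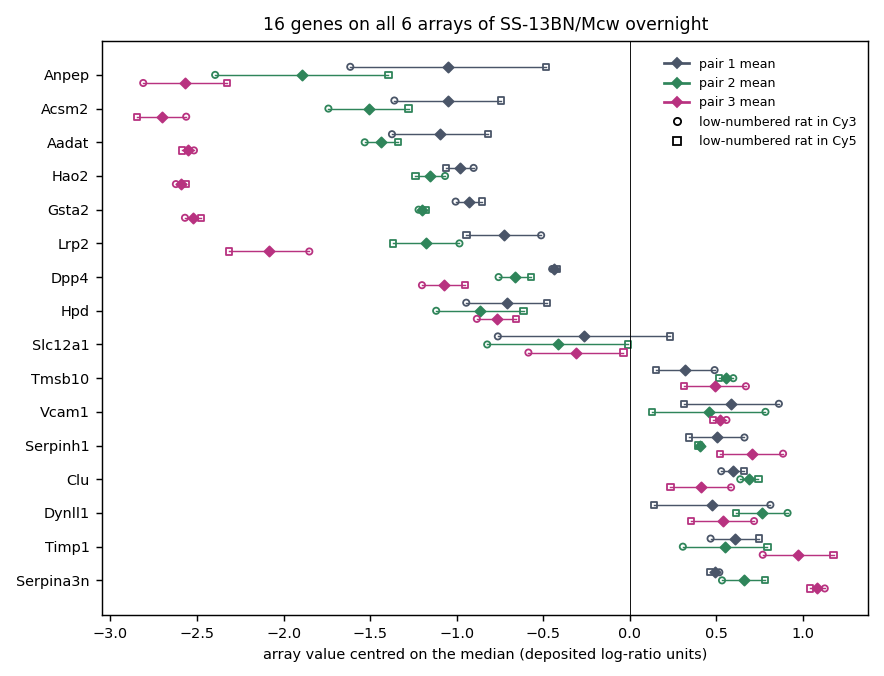
Array values (open symbols) and pair means (diamonds) of 16 genes, with log-ratio units on the x axis; circles are arrays with the lower-numbered rat in Cy3 and squares those with it in Cy5. The 9 genes at the top lie below 0 in each pair mean and the 7 at the bottom above it, and in Slc12a1 pair 1 has arrays on both sides of 0.

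Of 11 brush border and proximal tubule probes tested, 7 passed, all negative, and the list's median was -0.73 against -0.0016 for all probes. The share, 63.6%, stands beside 10.5% for all probes. This list and the others were written with earlier results of these data known, so a high share is no independent result. The medians by pair were -0.44, -0.73 and -1.11. The peptidases were Anpep, Ggt1, Dpp4 and Mme. Ggt1, gamma-glutamyltransferase, which splits glutathione outside the cell, had pair values of -0.93, -0.95 and -2.17 (mean -1.35 ± 0.71, SD, n = 3, adjusted p = 0.0107). Dpp4, dipeptidyl peptidase 4, read -0.45 and -0.42 in pair 1, -0.76 and -0.57 in pair 2, and -1.20 and -0.95 in pair 3 (mean -0.73 ± 0.32, SD, n = 3, adjusted p = 0.00627), the closest agreement of arrays in pair 1 among these peptidases. Mme, neprilysin, which cleaves natriuretic peptides, had pair values of -0.40, -0.51 and -1.15 (mean -0.69 ± 0.41, SD, n = 3, adjusted p = 0.0100).

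Of 5 peptidases tested 4 passed, and of 5 receptors, transporters and channels 2 passed. Lrp2, megalin, which takes up filtered protein, read -0.51 and -0.94 in pair 1, -0.98 and -1.37 in pair 2, and -1.85 and -2.32 in pair 3 (mean -1.33 ± 0.69, SD, n = 3, adjusted p = 0.0100). Slc15a2, the peptide transporter PEPT2, had pair values of -0.47, -0.81 and -1.39 (mean -0.89 ± 0.47, SD, n = 3, adjusted p = 0.00665). Kap, the androgen-regulated protein of the proximal tubule, was read on 5 arrays, at -0.82 and -1.31 in pair 1, -1.38 and -1.51 in pair 2, and -2.74 in pair 3. Only pairs 1 and 2 gave a value (mean -1.26 ± 0.27, SD, n = 2, adjusted p = 0.0203). The 4 members that did not pass were Slc17a1 at -0.46 (SD 0.51, n = 2), Cubn, the partner of megalin, at -0.30 (SD 0.26, n = 3), Mep1b at -0.27 (SD 0.25, n = 3) and Aqp1, the water channel of the same cells, at 0.054 (SD 0.090, n = 3). A difference in the number of proximal tubule cells and a difference in RNA per cell cannot be told apart in bulk tissue. Without pair 3 the number past the threshold was 1 (Dpp4). Kap had no pair 3 value, so its mean stayed the same in that fit, and its adjusted p by limma rose to 0.0630. With signs turned the list's median was -0.032, with Lrp2 at 0.21, Ggt1 at 0.32 and Kap at 0.15. Of its 11 members 3 then passed, against 309 of all 1100 probes.

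Of 22 probes for amino acid and oxo acid metabolism, 11 (50%, against 10.5% of all probes) passed, all negative. Below 0 lay 21 of 22 (median -0.34), against 554 of all 1100. Hpd, which makes homogentisate in the breakdown of tyrosine, had the smallest adjusted p of all 1100 probes. Its arrays read -0.95 and -0.48 in pair 1, -1.12 and -0.61 in pair 2, and -0.88 and -0.66 in pair 3 (mean -0.78 ± 0.078, SD, n = 3, adjusted p = 0.00241), and its 3 pairs lay within a narrow band instead of spreading toward pair 3. Fah, the last enzyme of the same path, had values in pairs 1 and 3 only (-0.61 and -1.25, mean -0.93, SD 0.46, n = 2, adjusted p = 0.0163). Agxt2, a mitochondrial aminotransferase of the kidney, had pair values of -0.81, -1.34 and -2.03 (mean -1.39 ± 0.61, SD, n = 3, adjusted p = 0.0100).

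The 2 enzymes of creatine synthesis were both on the negative side. Gatm, which makes guanidinoacetate in the kidney, stood at -0.84 and -0.61 in pairs 1 and 2 (mean -0.73, SD 0.16, n = 2, adjusted p = 0.0262). Gamt, which methylates it, stood at -0.39, -0.64 and -1.97 in the 3 pairs (mean -0.998 ± 0.85, SD, n = 3, adjusted p = 0.0321). Oat, ornithine aminotransferase, had pair values of -0.23, -0.58 and -1.32 (mean -0.71 ± 0.56, SD, n = 3, adjusted p = 0.0145), and Glul, glutamine synthetase, -0.23, -0.49 and -1.21 (mean -0.65, SD 0.50, n = 3, adjusted p = 0.0197). In Gamt, Oat and Glul pair 3 lay far below the other pairs. Smaller values that also passed were those of Ivd at -0.33 (SD 0.16, n = 3, adjusted p = 0.0193) and Hibadh at -0.30 (SD 0.17, n = 3, adjusted p = 0.0240), both enzymes of branched-chain amino acid breakdown. Ass1, of arginine synthesis, read -0.14 and -1.37 in pairs 2 and 3 and did not pass (mean -0.75, SD 0.87, n = 2, adjusted p = 0.108). Without pair 3, 3 of the 11 passed (Aadat, Hao2 and Hpd). Fah was not tested in that fit. Gatm, with no pair 3 value, kept its mean there, and its adjusted p by limma rose to 0.0646. With signs turned 6 members of the list passed, against 309 of all 1100 probes. Its median was then 0.036, with Agxt2 at 0.026, Oat at 0.051, Gamt at 0.27, Gatm at 0.15, Glul at 0.24, Fah at 0.23 and Ivd at 0.13.

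The promoters of negative and positive genes were compared by their letters, from the RefSeq promoter table of build GRCr8, over the 250 bases before each start. The table held a promoter for 69 genes past the threshold on the negative side, 24 on the positive side and 757 tested genes. HNF1 is a homeodomain factor of liver and proximal tubule, and 1 arm of its palindromic site reads GTTAAT. On either strand these letters were in 8 of 69 negative genes (11.6%), 0 of 24 positive genes, 33 of 757 tested genes (4.36%) and 2160 of 33469 promoters of the table (6.45%). The windows of 36 bases that hold the match in 7 of these genes, written on the strand of the gene with the match in capitals, are shown because they sit before genes that passed on the negative side.
Anpep (chr1:143195179-143195214, minus strand): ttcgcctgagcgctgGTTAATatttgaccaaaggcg
Akr7a3 (chr5:156876664-156876699, plus strand): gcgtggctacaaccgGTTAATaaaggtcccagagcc
Hpd (chr12:39042077-39042112, plus strand): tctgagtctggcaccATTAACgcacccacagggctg
Blvra (chr3:134802693-134802728, plus strand): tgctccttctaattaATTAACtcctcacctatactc
Acads (chr12:47154105-47154140, plus strand): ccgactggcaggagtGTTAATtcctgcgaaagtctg
Echs1 (chr1:204333673-204333708, minus strand): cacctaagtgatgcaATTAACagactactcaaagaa
Slc16a7 (chr7:63040416-63040451, minus strand): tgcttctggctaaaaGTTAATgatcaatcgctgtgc
The match began 98 bases before the start in Anpep, 42 in Akr7a3 and 38 in Slc16a7, and between 154 and 213 in the other four shown. A match is a description of letters and no test was made of the shares.

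The HNF4 motif CAAAGTCCA was in 2 of 69 negative, 0 of 24 positive and 7 of 757 tested promoters, and the AP-1 motif TGANTCA in 2, 2 and 43. The TATA motif TATAAA was in 6 of 69 (8.70%), 4 of 24 (16.7%) and 69 of 757 (9.11%). The GC box GGGCGG was in 36 of 69 negative (52.2%), 18 of 24 positive (75%) and 459 of 757 tested promoters (60.6%). All were searched on both strands, and none of the motifs contains another. The whole 250 bases of 4 genes follow to show what these stretches look like, with Anpep and Hao2 from the negative side and Timp1 and Pdlim1 from the positive side, and each motif found in capitals. They were taken from the 4 genes farthest from 0 on each side that the table held, because each of them holds a motif.
Anpep (chr1:143195102-143195351, minus strand, GTTAAT): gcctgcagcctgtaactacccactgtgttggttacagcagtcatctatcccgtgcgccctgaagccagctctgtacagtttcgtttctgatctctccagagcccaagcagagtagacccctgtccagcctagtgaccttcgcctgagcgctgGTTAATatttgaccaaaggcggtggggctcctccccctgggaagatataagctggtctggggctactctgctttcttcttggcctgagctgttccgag
Hao2 (chr2:188913134-188913383, minus strand, TATAAA read on the other strand): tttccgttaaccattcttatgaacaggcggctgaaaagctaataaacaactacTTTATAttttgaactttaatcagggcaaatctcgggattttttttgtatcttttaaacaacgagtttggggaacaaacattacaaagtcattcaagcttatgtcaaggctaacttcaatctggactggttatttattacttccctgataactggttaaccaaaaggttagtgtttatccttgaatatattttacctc
Timp1 (chrX:3771123-3771372, minus strand, GC box on the other strand): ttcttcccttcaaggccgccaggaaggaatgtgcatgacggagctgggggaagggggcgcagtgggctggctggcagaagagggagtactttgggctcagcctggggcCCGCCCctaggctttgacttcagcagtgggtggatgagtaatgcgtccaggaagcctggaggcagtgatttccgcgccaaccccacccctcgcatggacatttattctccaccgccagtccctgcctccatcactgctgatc
Pdlim1 (chr1:249040410-249040659, minus strand, GC boxes on either strand): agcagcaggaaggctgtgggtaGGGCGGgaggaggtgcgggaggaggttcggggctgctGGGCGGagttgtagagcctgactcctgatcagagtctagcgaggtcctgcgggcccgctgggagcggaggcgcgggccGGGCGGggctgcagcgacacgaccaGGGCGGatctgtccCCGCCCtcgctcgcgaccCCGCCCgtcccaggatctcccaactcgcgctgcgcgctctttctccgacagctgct
Bases G and C made up 55.6% of this stretch in Anpep, 33.2% in Hao2, 61.2% in Timp1 and 71.2% in Pdlim1, and Pdlim1 held 6 GC boxes. The other genes farthest from 0 held none of the motifs, and their shares were 44% in Acsm2, 62% in Aadat, 49.2% in Serpina3n and 67.6% in P4ha1, so that the ranges of both sides overlapped.

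Glutathione and antioxidant genes lay below 0 in 18 of 21 probes, against 554 of all 1100, with a median of -0.25. Of these 21 probes 6 passed (28.6%, against 10.5% of all probes), all negative. Beside Gsta2 and Ggt1 they were Akr7a3, an aldehyde reductase, and Gclm, Gss and Gpx4. Akr7a3 read -0.50 and -0.62 in pair 1, -1.13 and -1.26 in pair 2, and -2.06 and -2.27 in pair 3 (mean -1.31 ± 0.80, SD, n = 3, adjusted p = 0.00627). Gclm and Gss make glutathione, and their pair values were -0.34, -0.54 and -1.18 (mean -0.69, SD 0.44, n = 3, adjusted p = 0.0317) and -0.25, -0.29 and -1.05 (mean -0.53 ± 0.45, SD, n = 3, adjusted p = 0.0262). In Gss pairs 1 and 2 were alike, and pair 3 lay far below them. Gpx4, which reduces lipid peroxides, had pair values of -0.25, -0.49 and -0.56 (mean -0.43 ± 0.16, SD, n = 3, adjusted p = 0.0207). Without pair 3, 2 passed (Gsta2 and Akr7a3). With signs turned 9 of 21 members passed, against 309 of all 1100 probes. The median was then 0.0062, with Akr7a3 at 0.076 and Gclm at 0.056.

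Xenobiotic and steroid enzymes passed in 5 of 16 probes (31.2%, against 10.5% of all probes), all negative, with a median of -0.19. Cyp2c23 is the epoxygenase that makes epoxyeicosatrienoic acids from arachidonic acid in the rat kidney. It was read on 5 arrays, at -1.05 and -1.11 in pair 1, -0.55 and -1.14 in pair 2, and -1.74 in pair 3 (mean -0.96 ± 0.17, SD, n = 2, adjusted p = 0.0206). Fmo1, a flavin monooxygenase, was likewise read on 5 arrays, and its pair values were -0.77 and -0.83 (mean -0.80 ± 0.042, SD, n = 2, adjusted p = 0.0203). Both genes lacked a value for pair 3, where a single array read -1.74 for Cyp2c23 and -1.27 for Fmo1. The others that passed were Cyp2d4 at -0.62 ± 0.53 (SD, n = 3, adjusted p = 0.0419), Hsd17b4 at -0.35 ± 0.19 (SD, n = 3, adjusted p = 0.0262) and Aldh2 at -0.33 ± 0.12 (SD, n = 3, adjusted p = 0.0473). Without pair 3 the count for the list was 0. Cyp2c23 and Fmo1, with no pair 3 value, kept their means in that fit, and their adjusted p by limma rose to 0.0630 each. With signs turned Cyp2c23 stood at 0.16, Fmo1 at 0.26 and Aldh2 at 0.010.

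Genes of fat and energy metabolism were mixed. Fatty acid oxidation and lipid probes passed in 4 of 23 (17.4%), all negative, and the list's median of -0.047 was near 0. Beside Acsm2 these were the acyl-CoA dehydrogenases Acads (-0.28, -0.55 and -1.09, mean -0.64 ± 0.41, SD, n = 3, adjusted p = 0.0107) and Acadl (-0.22, -0.27 and -0.47, mean -0.32 ± 0.13, SD, n = 3, adjusted p = 0.0240), and Etfa, which takes up their electrons (-0.36, -0.47 and -0.64, mean -0.49 ± 0.14, SD, n = 3, adjusted p = 0.0193). Acadm, the medium-chain dehydrogenase, did not pass at -0.21 ± 0.18 (SD, n = 3, adjusted p = 0.0965). Fabp4, a fatty acid carrier of fat and endothelial cells, lay on the positive side at 0.32, 0.39 and 1.15 in the 3 pairs and did not pass (adjusted p = 0.184). Respiratory chain and citrate cycle probes passed in 3 of 23 (13.0%) with a median of -0.10. Its medians by pair were 0.066, 0.0055 and -0.32, so that the negative median rested on pair 3, and without that pair it was 0.027. With signs turned it was 0.14 and 12 of 23 probes passed, against 309 of all 1100. The 3 that passed were Cycs, cytochrome c (-0.28, -0.37 and -0.99, mean -0.55 ± 0.38, SD, n = 3, adjusted p = 0.0322), Aco1 (mean -0.37 ± 0.25, SD, n = 3, adjusted p = 0.0193) and Idh3g (mean -0.32 ± 0.047, SD, n = 3, adjusted p = 0.0390). The dye orientations of Idh3g lay far apart, at -0.73 and 0.18 in pair 1, -0.76 and 0.14 in pair 2, and -0.56 and -0.18 in pair 3. In glycolysis and glucose handling 2 of 17 (11.8%) passed with a median of -0.0073, Sord, which makes fructose from sorbitol (-0.41, -0.58 and -1.39, mean -0.79 ± 0.52, SD, n = 3, adjusted p = 0.0203), and Pdk2, a kinase of pyruvate dehydrogenase (mean -0.27 ± 0.056, SD, n = 3, adjusted p = 0.0321). The shares of the respiratory and glycolysis lists lie near the 10.5% of all probes. Without pair 3 the count for each of these 3 lists was 0. With signs turned Acads stood at 0.15, Aco1 at 0.12 and Sord at 0.15.

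The nephron beyond the proximal tubule gave small values. Of 6 thick ascending limb and distal probes, 1 passed (16.7%, against 10.5% of all probes), and all 6 lay below 0 (median -0.17), against 554 of all 1100. Slc12a1, the sodium-potassium-chloride cotransporter that loop diuretics block, read -0.76 and 0.23 in pair 1, -0.82 and -0.0097 in pair 2, and -0.59 and -0.037 in pair 3 (mean -0.33 ± 0.077, SD, n = 3, adjusted p = 0.0239). The dye orientations differed widely in this gene, since the 3 arrays with the lower-numbered rat in Cy3 lay at -0.59 or below, and those with it in Cy5 between -0.037 and 0.23. Umod, uromodulin, read 0.071, -0.16 and -0.48 (mean -0.19 ± 0.28, SD, n = 3, adjusted p = 0.267), and Egf -0.049, -0.035 and -0.34 (mean -0.14 ± 0.17, SD, n = 3, adjusted p = 0.264). Of 5 collecting duct probes 0 passed (median -0.10), with the sodium channel subunit Scnn1a at -0.084 ± 0.071 (SD, n = 3, adjusted p = 0.371) and the water channel Aqp3 at 0.0059 ± 0.12 (SD, n = 3, adjusted p = 0.968). Of 8 sodium pump and ion transport probes 0 passed (median 0.090), with the pump subunit Atp1b1 at 0.21, 0.38 and 0.0095 (mean 0.20 ± 0.19, SD, n = 3, adjusted p = 0.161). With signs turned 3 of the 6 thick ascending limb and distal probes passed, 0 of the 5 collecting duct probes and 4 of the 8 sodium pump probes. Over all 1100 probes 309 then passed. Atp1b1, at 0.21, was among those past the threshold, and Umod came to 0.38, on the other side.

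Hormone and lipid mediator lists were small, and their shares are read beside the 10.5% of all probes. Of 8 renin-angiotensin, natriuretic and nitric oxide probes 1 passed (12.5%). That was Agt, angiotensinogen, the precursor of angiotensin, with array values of -0.28 and -0.19 in pair 1, -0.28 and -0.75 in pair 2, and -1.63 and -1.21 in pair 3 (mean -0.72 ± 0.62, SD, n = 3, adjusted p = 0.0419). All 6 arrays lay below 0, and pair 3 lay far below the other pairs. Without pair 2 or without pair 3 neither Agt nor Slc12a1 passed, and without pair 3 Gcgr did not pass. Igf1 did not pass when any of the 3 pairs was left out. The enzymes that convert corticosterone, Hsd11b2 (-0.13, -0.32 and -0.24, adjusted p = 0.126) and Hsd11b1 (0.085, -0.24 and -0.33, adjusted p = 0.516), and Sgk1, the kinase that aldosterone induces (-0.23, -0.19 and 0.18, adjusted p = 0.671), did not pass. Of 5 arachidonic acid probes 1 passed (20%), Cyp2c23, which is also on the xenobiotic list. Among 29 growth factor, receptor and kinase probes 2 passed (6.90%), a share near the background. They were Gcgr, the glucagon receptor (-0.40, -0.44 and -0.75, mean -0.53 ± 0.19, SD, n = 3, adjusted p = 0.0133), and Igf1 (-0.33, -0.31 and -0.24, mean -0.29 ± 0.047, SD, n = 3, adjusted p = 0.0419). With signs turned 9 of these 29 probes passed, against 309 of all 1100 probes, and Gcgr stood at 0.041. Of the 8 renin-angiotensin, natriuretic and nitric oxide probes 2 then passed, Sgk1 at -0.15 among them, and of the 5 arachidonic acid probes 0.

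On the positive side the values were smaller and the pairs closer together. Injury and acute phase genes passed in 6 of 18 probes (33.3%, against 10.5% of all probes), all positive, with a median of 0.26. Above 0 lay 14 of the 18, against 546 of all 1100. The other 4 lay below 0, down to -0.37, and did not pass. Serpina3n, an acute phase protease inhibitor, had the largest value of those that passed. Its arrays read 0.52 and 0.46 in pair 1, 0.53 and 0.78 in pair 2, and 1.13 and 1.04 in pair 3 (mean 0.74 ± 0.31, SD, n = 3, adjusted p = 0.00627). Clu, clusterin, a chaperone that injured tubules release, read 0.53 and 0.66 in pair 1, 0.64 and 0.74 in pair 2, and 0.58 and 0.23 in pair 3 (mean 0.56 ± 0.14, SD, n = 3, adjusted p = 0.0100). In Serpina3n pair 3 lay highest, whereas in Clu it lay lowest, and all 6 arrays of both genes lay above 0. Metallothionein Mt2A had pair values of 0.28, 0.62 and 0.22 (mean 0.37 ± 0.21, SD, n = 3, adjusted p = 0.0240), galectin 3 (Lgals3) 0.29, 0.43 and 0.37 (mean 0.37 ± 0.073, SD, n = 3, adjusted p = 0.0107) and S100a10, a partner of annexin A2, 0.34, 0.39 and 0.20 (mean 0.31 ± 0.10, SD, n = 3, adjusted p = 0.0207). S100a11 also passed at 0.27 (SD 0.090, n = 3, adjusted p = 0.0400). Without pair 3, 2 of the list passed (Serpina3n and Clu), and with signs turned Serpina3n came to -0.018.

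Matrix genes followed. Of 9 probes for fibrillar collagen and its processing 2 passed (22.2%, against 10.5% of all probes). All 9 lay above 0 (median 0.38), against 546 of all 1100. Serpinh1, the collagen chaperone HSP47, read 0.66 and 0.34 in pair 1, 0.41 and 0.40 in pair 2, and 0.88 and 0.52 in pair 3 (mean 0.54 ± 0.15, SD, n = 3, adjusted p = 0.00967). P4ha1, which hydroxylates collagen, read 0.82 and 0.34 in pair 1, 0.73 and 0.15 in pair 2, and 1.20 and 0.70 in pair 3 (mean 0.66 ± 0.27, SD, n = 3, adjusted p = 0.0419). The collagens themselves did not pass. Col1a1 had pair values of 0.38, 0.80 and 0.91 (mean 0.70 ± 0.28, SD, n = 3, adjusted p = 0.0651) and Col3a1 0.29 and 0.47 in pairs 1 and 2 (mean 0.38, SD 0.12, n = 2, adjusted p = 0.184). Of 17 probes for matrix turnover 2 passed (11.8%), a share near the background. Timp1, the tissue inhibitor of metalloproteinases, read 0.47 and 0.74 in pair 1, 0.31 and 0.79 in pair 2, and 0.77 and 1.18 in pair 3 (mean 0.71 ± 0.23, SD, n = 3, adjusted p = 0.00627), and all 6 arrays lay above 0. Mmp2, gelatinase A, was read on 5 arrays, and its pair values were 0.27 and 0.65 for pairs 1 and 3 (mean 0.46 ± 0.27, SD, n = 2, adjusted p = 0.0465). Without pair 3, 0 of the collagen list and 1 of the matrix list (Timp1) passed, and Mmp2 was not tested. With signs turned Timp1 lay at -0.20 and Col1a1 at -0.018.

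Inflammation genes lay above 0 in 10 of 10 probes (median 0.30), against 546 of all 1100. Of the 10, 2 passed (20%, against 10.5% of all probes). Vcam1, the endothelial adhesion molecule, read 0.86 and 0.31 in pair 1, 0.78 and 0.13 in pair 2, and 0.56 and 0.48 in pair 3 (mean 0.52 ± 0.066, SD, n = 3, adjusted p = 0.0191), and Il6r, the interleukin 6 receptor, had pair values of 0.22, 0.38 and 0.42 (mean 0.34 ± 0.11, SD, n = 3, adjusted p = 0.0301). C1s, a protease of complement, had the largest mean of all tested genes with a positive value, but with pair values of 0.48, 0.61 and 1.83 it did not pass (mean 0.97 ± 0.75, SD, n = 3, adjusted p = 0.0958). Irf1, an interferon-induced regulator, read 0.33, 0.29 and 0.59 (adjusted p = 0.0845) and Alox5ap, the partner of 5-lipoxygenase in leukocytes, 0.20, 0.22 and 0.33 (adjusted p = 0.0614). Without pair 3, 0 of the list passed. With signs turned 4 of its 10 members passed, C1s at 0.19 among them, against 309 of all 1100 probes. The median was then 0.056.

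Markers of other cells were measured beside these genes. Of 7 probes for endothelium, smooth muscle and mural cells 5 lay above 0, against 546 of all 1100. Their range was -0.049 to 0.70 with a median of 0.14, and 0 passed. Tagln, a smooth muscle protein, had pair values of 0.43, 0.63 and 1.03 (adjusted p = 0.0817), Pdgfra, a receptor of fibroblasts, 0.52, 0.18 and 1.31 (adjusted p = 0.123) and Des, desmin, 0.20, 0.10 and 0.66 (adjusted p = 0.202), whereas Acta2, the actin of smooth muscle, lay at 0.027 and 0.060 in pairs 1 and 2 (adjusted p = 0.873). Their median was 0.20 in pair 1, 0.060 in pair 2 and 0.50 in pair 3, and the collagen list ran 0.29, 0.24 and 0.70. With signs turned 4 of the 7 endothelium, smooth muscle and mural probes passed, against 309 of all 1100 probes. The median of the 7 was then -0.075, with Des at -0.42, Acta2 at -0.32, Tagln at -0.075 and Pdgfra at 0.12. Of 3 red blood cell probes 0 passed, with Hba-a1 at 0.24 ± 0.17 (SD, n = 3) and Hbb at -0.13 ± 0.051 (SD, n = 3). The part of these cells in the results was not tested.

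Actin genes passed in 4 of 12 probes (33.3%, against 10.5% of all probes), all positive, with a median of 0.22. Pdlim1, a scaffold of actin fibres, read 0.43 and 0.23 in pair 1, 1.09 and 0.21 in pair 2, and 0.80 and 0.87 in pair 3 (mean 0.60 ± 0.25, SD, n = 3, adjusted p = 0.0100), and Tmsb10, a thymosin that binds actin monomers, read 0.49 and 0.15 in pair 1, 0.60 and 0.52 in pair 2, and 0.67 and 0.31 in pair 3 (mean 0.46 ± 0.12, SD, n = 3, adjusted p = 0.0107). Its relative Tmsb4x had pair values of 0.23, 0.40 and 0.56 (mean 0.40 ± 0.17, SD, n = 3, adjusted p = 0.0320) and Actb 0.27, 0.30 and 0.52 (mean 0.36 ± 0.14, SD, n = 3, adjusted p = 0.0195). Both probes of Myl12b, a myosin light chain, were positive and did not pass, at 0.25 and 0.17. Microtubule genes passed in 3 of 7 probes (42.9%, against 10.5% of all probes) and split in sign. Dynll1, a dynein light chain, read 0.81 and 0.14 in pair 1, 0.91 and 0.61 in pair 2, and 0.72 and 0.35 in pair 3 (mean 0.59 ± 0.15, SD, n = 3, adjusted p = 0.00627), Tubb5, a tubulin, -0.036 and 0.58 in pair 1, -0.071 and 0.58 in pair 2, and 0.29 and 0.92 in pair 3 (mean 0.38 ± 0.20, SD, n = 3, adjusted p = 0.0186), and Map1lc3b, which also serves autophagy, -0.59 and 0.039 in pair 1, -0.83 and 0.086 in pair 2, and -0.77 and 0.053 in pair 3 (mean -0.34 ± 0.053, SD, n = 3, adjusted p = 0.0453). In Tubb5 the dye orientations lay farther apart than its mean lay from 0, and in Map1lc3b the arrays with the lower-numbered rat in Cy5 lay just above 0. Without pair 3, 0 actin genes and 1 microtubule gene (Dynll1) passed. With signs turned Tubb5 stood at -0.31.

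Regulators and housekeeping genes were unlike. Of 13 transcription and early response probes 3 passed (23.1%, against 10.5% of all probes): Tsc22d1 (0.35, 0.81 and 0.55, mean 0.57 ± 0.23, SD, n = 3, adjusted p = 0.0167), the stress regulator Ddit3 (0.23, 0.41 and 0.41, mean 0.35 ± 0.10, SD, n = 3, adjusted p = 0.0173) and Dbp, an output gene of the circadian clock, on the negative side (-0.45, -0.44 and -0.40, mean -0.43 ± 0.026, SD, n = 3, adjusted p = 0.0473). Of 21 chaperone and proteasome probes 2 passed (9.52%, near that share), Serpinh1 and Calr, calreticulin (mean 0.26 ± 0.13, SD, n = 3, adjusted p = 0.0363). Ribosomal proteins and translation factors lay above 0 in 25 of 31 probes, against 546 of all 1100. Their median was 0.10 with a range of -0.22 to 0.27, and 0 passed. Cholesterol synthesis genes lay above 0 in 10 of 12 probes (median 0.23), against the same 546 of 1100, and 0 passed. Among them were Sqle at 0.32, 0.46 and 0.18 (adjusted p = 0.0556) and Cyp51 at 0.48, 0.23 and 0.37 (adjusted p = 0.0848). Without pair 3, 0 members of these 4 lists passed. With signs turned 14 of the 31 ribosomal and translation probes passed, against 309 of all 1100. The median of the cholesterol list was then 0.046, and Ddit3 lay at -0.094 and Calr at -0.11.

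**Figure D3:**
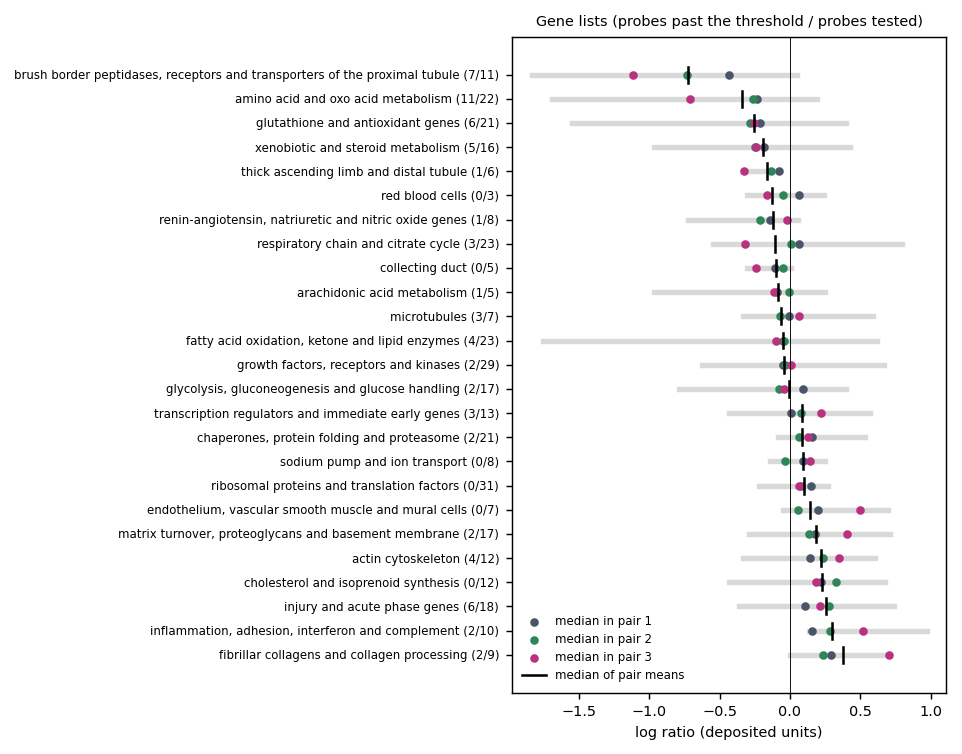
Gene lists in order of their median, with log ratio in deposited units on the x axis; grey bars span the lowest to the highest probe mean, coloured points are the medians of the 3 pairs, and the black tick is the median of pair means. Brush border and amino acid lists lie at the negative end and fibrillar collagen at the positive end (0.38), and in these 3 lists pair 3 lies farthest from 0.

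Some genes differed little between pairs while their arrays did not agree. Among named genes that passed with 3 pairs, the smallest SD relative to the mean on the negative side belonged to Dbp, whose pairs read -0.45, -0.44 and -0.40 although its arrays ran -0.89 and -0.017 in pair 1, -0.54 and -0.33 in pair 2, and -0.63 and -0.18 in pair 3. Sgta, a co-chaperone, had pair values of -0.46, -0.39 and -0.49 and arrays of -0.87 and -0.045 in pair 1, -0.70 and -0.083 in pair 2, and -0.91 and -0.075 in pair 3 (mean -0.45 ± 0.053, SD, n = 3, adjusted p = 0.0203). On the positive side it belonged to Vcam1, whose arrays lay well apart in pairs 1 and 2. Lgals3, galectin 3, with arrays of 0.53 and 0.054 in pair 1, 0.66 and 0.21 in pair 2, and 0.48 and 0.27 in pair 3, was like it. Pcna, the clamp of DNA replication, read 0.28 and 0.31 in pair 1, 0.30 and 0.47 in pair 2, and 0.27 and 0.27 in pair 3 (mean 0.32 ± 0.058, SD, n = 3, adjusted p = 0.0400), Ywhah, a 14-3-3 protein, 0.45 and 0.34 in pair 1, 0.30 and 0.35 in pair 2, and 0.54 and 0.45 in pair 3 (mean 0.41 ± 0.088, SD, n = 3, adjusted p = 0.0145), and Penk, proenkephalin, 0.30 and 0.27 in pair 1, 0.58 and 0.22 in pair 2, and 0.18 and 0.33 in pair 3 (mean 0.31 ± 0.078, SD, n = 3, adjusted p = 0.0203). Each array of these 5 positive genes lay above 0. Among genes nearest to the threshold, Slc37a4 and Odc1 passed at an adjusted p of 0.0473, and Ctsb and Bcat2 missed it at 0.0533 and 0.0542.

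The same comparison in SS rats, from other rats, gave the same side for most of these genes. The genes were chosen by their values in SS-13BN/Mcw, so that medians nearer to 0 in SS are no sign of a difference between strains. Of 77 negative genes with at least 2 SS pairs 73 were negative in SS, with a median of -0.22 there and -0.55 in SS-13BN/Mcw. For the positive genes it was 35 of 35, with medians of 0.27 and 0.37. Over all tested probes the same side held for 379 of 523 negative and 416 of 530 positive ones. Across 1053 probes, which share the array design, r was 0.771. Anpep had pair values of -0.83, -1.44 and -0.43 in SS, a range that overlaps that of SS-13BN/Mcw. Timp1 read 0.94, 0.63 and 0.70 in SS and Dynll1 0.59, 0.55 and 0.50, ranges that overlap those of SS-13BN/Mcw (0.61, 0.55 and 0.97 and 0.47, 0.76 and 0.54).

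A direct test of the difference between strains found 0 of 1053 probes (0%) past the threshold by limma, with 53 at an unadjusted p under 0.05 where chance gives 52.65. The genes named next have pair values that do not overlap between strains and the smallest p, and each missed the threshold at an adjusted p of 0.898. Foxq1, a forkhead factor, read 0.37, -0.13 and 0.32 in SS-13BN/Mcw and -0.66, -0.72 and -0.20 in SS, a difference of 0.71 (SE 0.18). Cycs read -0.28, -0.37 and -0.99 against 0.16, 0.0062 and 0.17 (difference -0.66, SE 0.20), so that this gene lay on opposite sides of 0. Acads read -0.28, -0.55 and -1.09 against -0.077, -0.014 and -0.10 (-0.58, SE 0.18), and Pros1, protein S of the clotting system, -0.33, -0.40 and -0.60 against -0.030, -0.036 and 0.019 (-0.43, SE 0.12). The slides of both strains were numbered apart, so slide order and strain cannot be told apart.

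**Figure D4:**
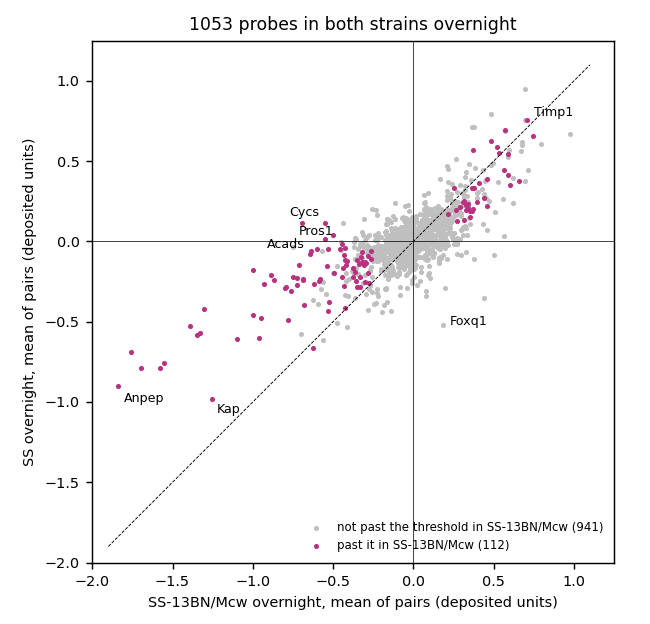
Mean of pairs in SS-13BN/Mcw overnight (x axis) against SS overnight (y axis) for 1053 probes, both in deposited log-ratio units; coloured points passed the threshold in SS-13BN/Mcw and the broken line marks equal values. Most of the coloured points on the negative side lie above the line, nearer to 0 in SS (median -0.22 against -0.55) as the choice of these genes by their SS-13BN/Mcw values favours, and 0 probes passed the test of the difference.

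The same genes were set beside the 3-day group. Both groups use rats 1 to 3, so they are not independent. Anpep read -1.05, -1.89 and -2.57 overnight and -1.16, -1.91 and -1.78 at 3 days, Hao2 -0.98, -1.15 and -2.59 and -1.26, -1.56 and -1.22, and Kap -1.07 and -1.45 in its 2 pairs and -1.71, -1.94 and -1.49 at 3 days. In Anpep and Hao2 the ranges of both times overlapped, and in Kap the pair values did not, although the 1 array read in its pair 3 overnight, which gave no pair value, lay at -2.74, beyond the 3-day values. The test of 3 days minus overnight found 0 of 897 probes (0%) past the threshold, with 101 at an unadjusted p under 0.05 where chance gives 44.85. With the lower-numbered rat as a replicate block 0 passed and 158 had an unadjusted p under 0.05. In the array-level fit 8 passed.

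The genes below have pair values that do not overlap between times and the smallest p, and each had an adjusted p of 0.276. Hpd read -0.71, -0.87 and -0.77 overnight and -0.15, -0.12 and -0.21 at 3 days (difference 0.62, SE 0.13), nearer to 0. Gcgr read -0.40, -0.44 and -0.75 and 0.12, -0.036 and 0.17 (0.62, SE 0.15). Hsd11b1, which regenerates corticosterone, read 0.085, -0.24 and -0.33 overnight and -0.94, -1.20 and -1.15 at 3 days (-0.94, SE 0.23), the farthest from 0 at 3 days among the 8 genes named. Hsd11b2, which inactivates corticosterone in the collecting duct, lay on the negative side overnight (-0.13, -0.32 and -0.24) and on the positive side at 3 days (0.26, 0.058 and 0.49), and so did Scnn1a (-0.081, -0.014 and -0.16 and 0.21, 0.26 and 0.38). On the positive side Timp1 read 0.61, 0.55 and 0.97 and 0.25, 0.10 and 0.14, Clu 0.59, 0.69 and 0.41 and 0.10, -0.11 and -0.079, and Tubb5 0.27, 0.25 and 0.60 and -0.076, -0.00047 and -0.068. These 3 injury, matrix and tubulin genes lay nearer to 0 at 3 days in each pair. None of these differences passed the adjusted threshold.

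**Figure D5:**
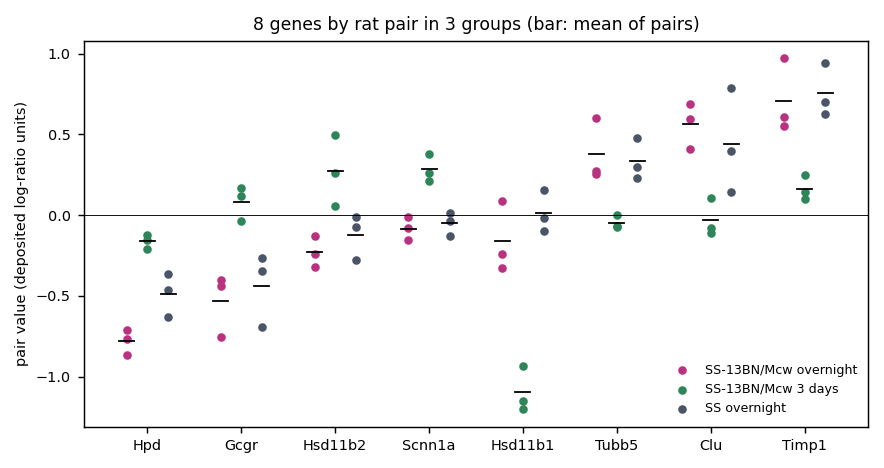
Pair values (points) and means (bars) of 8 genes in SS-13BN/Mcw overnight, SS-13BN/Mcw at 3 days and SS overnight, with deposited log-ratio units on the y axis. In each gene the overnight and 3-day points of SS-13BN/Mcw do not overlap, which was the rule of choice, and the SS overnight points of Timp1 lie between 0.63 and 0.94, above its 3-day points.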

How the data were processed

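The authors deposited 1 log ratio per probe and array for 24 two-colour cDNA arrays of rat kidney total RNA. The base, the numerator and the steps before deposit were not given in the sources used here. Array titles gave strain, time, rats and dyes. Arrays were centred on their medians, and both dye-swapped arrays of a pair were averaged without turning signs. The test was limma 3.58.1 (R 4.3.3) with 1 coefficient per group over 12 rat pairs, 8 residual degrees of freedom, eBayes, two-sided tests and Benjamini-Hochberg adjustment at 0.05 over all probes with both orientations in at least 2 pairs. The comparisons were SS-13BN/Mcw overnight against 0, SS-13BN/Mcw minus SS overnight, and 3 days minus overnight in SS-13BN/Mcw. The fit was run on simulated data with independent pairs and the same spread for all pairs of a probe. That run did not cover shared rats, the wider spread of pair 3 or the choice of signs by dye. The spread behind each p-value is that of rat pairs.

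Gene symbols were those of the array annotation, updated by gene number for 1421 of 1426 probes, and of the 1766 measured probes 29 had several symbols and 311 none and were not named. The group, the 26 gene lists and the promoters were chosen with earlier results of these data known. Named genes were up to 15 per side with the largest mean, up to 5 of each list by smallest p, up to 4 per side for each difference, the 5 per side with the smallest SD relative to the mean, and 4 per side next to the threshold, and a few other list members named after their values were seen. Deviations from group means of pairs with the same lower-numbered rat correlated between overnight and 3 days (r = 0.389, 0.321 and 0.259 over 745 probes), and the titles repeat these rats. The main fits nevertheless treated the rat pairs as independent, and only the alternative with the rat as a block linked them. Alternatives were the ratios as deposited, scaling, quantile normalization, turned signs, an array-level fit, the rat as a block, all 3 pairs required, a robust prior, other sets of groups and leaving out each pair. The sequence of 1 promoter window is not reported here. Figures used Python 3.11.15 and matplotlib 3.10.9.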

Additional observations from a re-analysis of the deposited data

How the results depend on the processing

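The count of 116 stayed within 1.5 times of itself with ratios as deposited (115), with arrays scaled to 1 spread (136), with quantile normalization (142), with 3 pairs required (121 of 923), with a robust prior (115) and with both SS-13BN/Mcw groups fitted without SS (95). Its split between sides moved from 35 positive and 81 negative to 57 and 85 with quantile normalization. The titles repeat rats 1 to 3 at both times, and with the lower-numbered rat as a replicate block the count was 125, with all 116 among them. With the block the differences of strain and time again gave 0, while probes with an unadjusted p under 0.05 went from 101 to 158 for time and stayed at 53 for strain. An array-level fit with dye as a term gave 226, 1 for strain and 8 for time. Leaving out 1 pair of the group gave 12 to 92 for the count against 0, and 0 for both differences. Turning signs by dye gave 309, and fitting the group alone gave 0, with 280 at an unadjusted p under 0.05. Of the genes named in the text and tested, 46 took the other side when signs were turned and 25 kept their side but no longer passed, among them Agt at -0.0057 and Clu at 0.019. Another 4 kept their side and passed then, though not in the main fit: C1s at 0.19, Atp1b1 at 0.21, Ctsb at 0.22 and Sgk1 at -0.15. The medians of 12 of 25 gene lists took the other side then, and those of 3 did without pair 3. The cause was not tested. Genes negative in the values reported became positive at these means: Ahcy 0.0058, Slc37a4 0.0063, Aldh2 0.010, Agxt2 0.026, Scnn1a 0.034, Gcgr 0.041, Hao2 0.045, Oat 0.051, Acadm 0.054, Gclm 0.056, Hsd11b2 0.060, Hsd11b1 0.075, Cubn 0.075, Akr7a3 0.076, Mpst 0.11, Aco1 0.12, Alpl 0.13, Ivd 0.13, Gatm 0.15, Kap 0.15, Sord 0.15, Acads 0.15, Odc1 0.16, Cyp2c23 0.16, Lrp2 0.21, Fah 0.23, Glul 0.24, Hbb 0.26, Fmo1 0.26, Gamt 0.27, Ggt1 0.32, Umod 0.38 and Pard3 0.38. Genes positive became negative: Des -0.42, Acta2 -0.32, Tubb5 -0.31, Timp1 -0.20, Rap1b -0.12, Calr -0.11, Ddit3 -0.094, Cyp51 -0.081, Tagln -0.075, Pcna -0.034, Serpina3n -0.018, Col1a1 -0.018 and Fabp4 -0.017. Aqp3, near 0 in the values reported, became -0.050 with scaling and -0.054 with quantile normalization, and lay between -0.041 and 0.074 without 1 pair. With 3 pairs and no counts of molecules, small differences were not detectable, and the base of the logarithm and the direction with salt remained unknown.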

Other observations

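Of the 106 named genes that passed in SS-13BN/Mcw overnight, 42 are on no list, and those given here were chosen after their values were seen. On the negative side lay several enzymes that handle fatty acids. Slc27a2, a very long-chain acyl-CoA synthetase and fatty acid transporter, read -0.71 and -1.75 in pairs 1 and 3 (mean -1.23, SD 0.73, n = 2, adjusted p = 0.0258 by limma). Amacr, a racemase of branched fatty acids, read -0.57, -0.55 and -1.49 (adjusted p = 0.0186) and Echs1, the enoyl-CoA hydratase of mitochondria, -0.37, -0.65 and -0.60 (adjusted p = 0.0106). Echs1 also has a GTTAAT match before its start.

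Other enzymes lay on the same side. Cdo1, which oxidises cysteine, read -0.36, -0.64 and -0.77 in the 3 pairs (adjusted p = 0.00645), Mpst, which makes hydrogen sulfide, -0.33, -0.23 and -0.57 (adjusted p = 0.0186), and Ahcy, which splits adenosylhomocysteine, -0.069, -0.36 and -1.07 (adjusted p = 0.0419). Carriers and surface proteins were Alpl, alkaline phosphatase, at -0.57, -0.66 and -1.78 (adjusted p = 0.0226), Slc25a10, the dicarboxylate carrier of mitochondria, at -0.46, -0.69 and -0.88 (adjusted p = 0.0203) and Slc16a7, a monocarboxylate carrier, at -0.16, -0.40 and -0.26 (adjusted p = 0.0321). Blvra, biliverdin reductase, stood at -0.62, -0.52 and -1.11 (adjusted p = 0.0167) and Selenop, the selenium carrier, at -0.24, -0.36 and -0.50 (adjusted p = 0.0100). In Alpl and Ahcy pair 3 lay far below the others, and in Selenop and Slc16a7 the pairs lay closer together. On the positive side the small GTPases Rap1b (0.27, 0.18 and 0.35, adjusted p = 0.0262) and Arf4 (0.50, 0.21 and 0.36, adjusted p = 0.0258) and the surface protein Cd24 (0.28, 0.54 and 0.17, adjusted p = 0.0322) passed.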
